A study of Mus musculus with 12 samples.

Results

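The cells described here are mammary fibroblasts that carried mRNA for the matricellular proteins tenascin C (Tnc) and, at a high level, periostin (Postn). Among the 46257 barcodes that had at least 500 genes, at least 1000 UMIs (unique molecular identifiers, each marking 1 captured mRNA molecule) and at most 5% mitochondrial UMIs, 33709 were fibroblasts, defined by at least 20 UMIs over Col1a1, Col1a2 and Col3a1 and none of Ptprc, Pecam1 or Epcam. Of these, 1739 had at least 1 Tnc UMI, fewer than 10 Fabp4 UMIs and fewer than 20 Pi16 UMIs. The 499 of them with at least 60 Postn UMIs are called Postn-high cells, and the other 1240 are called Postn-low cells. Another 171 fibroblasts met the Tnc and Postn limits but not the limit on Fabp4 or Pi16 and were left out.

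The study treated female C57BL/6J mice with 4-vinylcyclohexene diepoxide (VCD), a compound that destroys ovarian follicles, to model menopause, and profiled the 4th mammary glands by single-cell RNA-seq in 12 libraries, 1 library for each group. All groups were 43 weeks old and all but the Intact group, which was age-matched, had received 160 mg/kg VCD daily for 15 days from 9 weeks of age, with diets starting at day 100 after VCD onset. In the final week mice received sesame oil vehicle, 1 µg 17β-estradiol (E2) per animal per day, E2 with 1 mg progesterone (P4), or E2 with 5 mg fulvestrant (ICI), an estrogen receptor degrader, given a single time at the onset of E2. Vehicle, E2 and E2 + P4 were each combined with no PBDE, low PBDE or high PBDE, a mixture of the brominated flame retardants PBDE-47, PBDE-100 and PBDE-153. Low PBDE was 0.05, 0.0028 and 0.0063 mg/kg/day of the 3 compounds for 20 weeks and high PBDE was 1, 0.056 and 0.126 mg/kg/day for 1 week, so that dose and duration cannot be told apart. Groups without PBDE ate matched food with DMSO, and the VCD_Vehicle_NormEnv group may have met PBDE from cage plastics. The number of mice behind each library was not given in the sources used here, so no result below has a replicate within a group.

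Periostin and tenascin C are secreted into the extracellular matrix, where they bind collagen, fibronectin and integrins and change how cells attach to the matrix. Both are abundant in developing, healing and tumor-associated connective tissue, where fibroblasts are their main source. In the mammary gland, fibroblasts surround the ducts and fill the space between the fat cells, and they respond to ovarian hormones in part through signals from the neighboring epithelium.

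On the GRCm38 build, Postn lies at chr3:54361109-54391037 on the plus strand and Tnc at chr4:63959785-64047015 on the minus strand. The other markers named for these cells are Mfap4 (chr11:61485431-61488900, plus strand), a microfibril-associated glycoprotein, Crabp1 (chr9:54764748-54773110, plus strand), a cytoplasmic retinoic acid-binding protein, and Stra6 (chr9:58063788-58153996, plus strand), a membrane receptor that imports retinol. All 5 are protein-coding genes.

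In all, 58620 barcodes were deposited. The shallowest library had 41737881 UMIs, the deepest 109224969, and the median library 62355232. Of 57499 distinct barcodes, 740 occurred in more than 1 library, and 8 Postn-high and 19 Postn-low cells carried such a barcode. Leaving those cells out gave 1026 called genes in the comparison of Postn-high with Postn-low cells, against 1099 with them. Sharing was uneven. The E2 library without PBDE shared 185 barcodes with low PBDE alone and 115 with E2 + P4 and no PBDE, but 9 with E2 and low PBDE and 2 with E2 and high PBDE. The E2 and E2 + P4 libraries with low PBDE shared 84. Low PBDE alone shared 5 barcodes with E2 and low PBDE and 14 with E2 + P4 and low PBDE. High PBDE alone shared 4 and 2 with its E2 and E2 + P4 libraries. Without PBDE, VCD_Vehicle shared 138 and 123 with E2 and E2 + P4, and the ICI library shared 13 with E2. A grouping of libraries behind this pattern was not tested. It could not be told apart from PBDE level in the PBDE comparisons below. Nor could it be told apart from hormone at low and high PBDE, or from ICI, in the shares, levels and fits below. No doublet caller was run. Of the cells described, 95 Postn-high and 31 Postn-low cells were among the top 5% of UMIs of their library.

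Postn-high cells came almost entirely from libraries of mice given E2 or E2 + P4 without ICI. These 6 libraries held 480 of the 499 cells and the other 6 held 19. Among Tnc fibroblasts, the share of Postn-high cells was 4.32% in the Intact library (6 of 139; exact 95% binomial interval 1.60 to 9.16%) and 2.86% in the VCD_Vehicle library (7 of 245; 1.16 to 5.80%). No Postn-high cell was found among 176 Tnc fibroblasts with low PBDE alone or among 65 with high PBDE alone. By the exact interval these allow shares of up to 2.07% and 5.52%, and at 3 counts of the total up to 1.70% and 4.62%. With a limit of 40 Postn UMIs in place of 60, the Intact share was 16.5% (23 of 139; 10.8 to 23.8%), and the VCD_Vehicle share was 4.90%.

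With E2 alone the share was 28.3% without PBDE (34 of 120; 20.5 to 37.3%), 30.5% with low PBDE (47 of 154; 23.4 to 38.4%) and 67.9% with high PBDE (74 of 109; 58.3 to 76.5%). With E2 + P4 it was 82.5% without PBDE (146 of 177; 76.1 to 87.8%), 46.2% with low PBDE (115 of 249; 39.9 to 52.6%) and 80.0% with high PBDE (64 of 80; 69.6 to 88.1%). With E2 and ICI it was 2.91% (3 of 103; 0.605 to 8.28%) and in the VCD_Vehicle_NormEnv library 2.46% (3 of 122; 0.510 to 7.02%). Every E2 or E2 + P4 library thus lay above each of the other libraries, while the E2 and E2 + P4 libraries overlapped with each other. The median share was 57.0% over the 6 E2 and E2 + P4 libraries and 2.66% over the other 6. The members were chosen with this pattern known, so the shares are a description without a test, and the intervals cover counting error only.

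**Figure D1:**
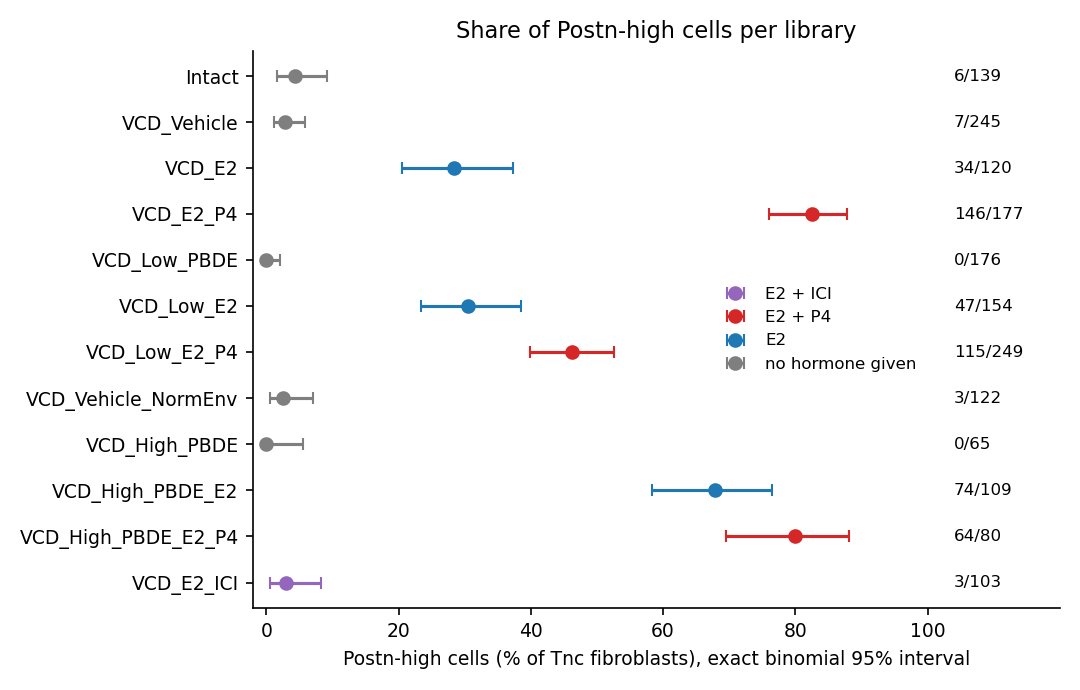
Share of Postn-high cells among Tnc fibroblasts (percent) in each of the 12 libraries, with exact 95% binomial intervals as bars. The 6 E2 and E2 + P4 libraries lie between 28.3% and 82.5% and the other 6 at or below 4.32%.

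As a share of all fibroblasts the cells remained a minority everywhere. They made up 4.97% of fibroblasts in the E2 + P4 library without PBDE, 4.28% with E2 + P4 and high PBDE, 3.64% with E2 and high PBDE and 2.10% with E2 + P4 and low PBDE. With E2 they were 1.37% without PBDE and 1.71% with low PBDE, and they were at most 0.238% in the 6 remaining libraries. The 6 E2 and E2 + P4 libraries stood in the same order with both denominators.

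The rule counts Postn UMIs, so depth enters it. In the 6 E2 and E2 + P4 libraries, Postn-high cells had a median of 25578.5 UMIs and 4933.5 genes and Postn-low cells a median of 13384 UMIs and 3420 genes. The gap was widest with E2 + P4 and low PBDE, where the medians were 24076 and 3944.5 UMIs. Among cells with 10000 to 30000 UMIs, the share of Postn-high cells in that library was 76.4%, beside 73.9% with E2 + P4 and no PBDE and 26.7% with E2 and no PBDE. The low share of the E2 + P4 and low PBDE library was thus not seen among cells of this depth. The median share at this depth was 73.7% over the 6 E2 and E2 + P4 libraries and 3.97% over the other 6, against 57.0% and 2.66% at any depth. Mitochondrial UMIs had a median of 3.53% in Postn-high and 3.39% in Postn-low cells.

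Relative to a cell's own UMIs, the median Postn level, in counts per 1000000 UMIs (CPM), was 8105 in the 480 Postn-high cells, with a range from 993 to 31311, and 1790 in the 409 Postn-low cells of the same libraries. The median Tnc level per cell was 170.2 CPM in Postn-high and 229 CPM in Postn-low cells. A single Tnc UMI, which the rule asks for, makes a higher CPM in a shallower cell, so these medians give no order. Of the 499 Postn-high cells, 124 had a single Tnc UMI and 311 had 3 or more. In the 6 E2 and E2 + P4 libraries a Tnc UMI was found in 7.31% of fibroblasts and 0.666% of immune cells, with median depths of 17934 and 7057 UMIs, and in 4.45% and 0.356% of cells thinned to 5000 UMIs. Immune cells here had a Ptprc UMI, fewer than 20 UMIs over Col1a1, Col1a2 and Col3a1, and no Pecam1 or Epcam UMI. The 19 Postn-high cells of the other 6 libraries were shallower, with a median of 14066 UMIs, and had a median Postn level of 6327 CPM.

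The limit of 60 Postn UMIs did not fall in a gap. Just below it, with 50 to 59 UMIs, lay 58 Tnc fibroblasts, of which 41 came from E2 or E2 + P4 libraries, and just above it, with 60 to 69 UMIs, lay 35, of which 29 did. Their median depths were 16767 and 16928 UMIs. The median number of Postn UMIs per Postn-high cell was 113 with E2 and no PBDE, 113 with E2 and low PBDE, 171.5 with E2 and high PBDE, and 245.5, 223 and 259.5 with E2 + P4 and no, low and high PBDE. Each E2 + P4 library lay above each E2 library in these counts, which are not scaled for depth. Per summed UMIs, E2 with high PBDE, at 9364 CPM of Postn, lay above E2 + P4 without PBDE, at 8395 CPM. The 7 cells of the VCD_Vehicle library had a median of 86.

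**Figure D2:**
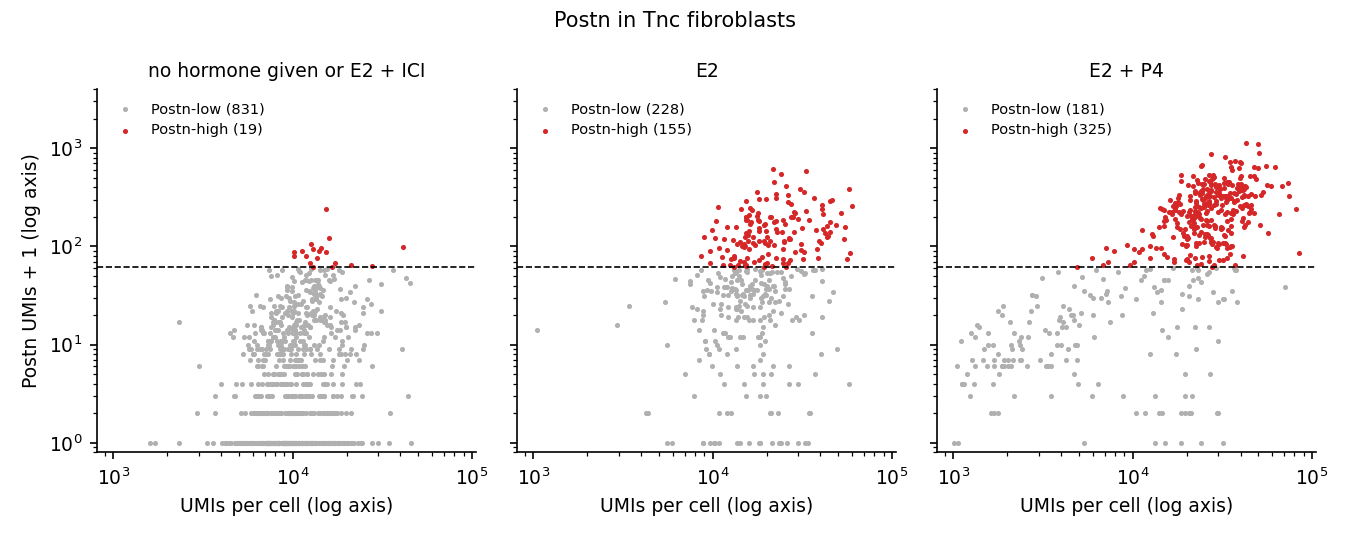
Postn UMIs plus 1 against total UMIs for each Tnc fibroblast, both on log axes, in 3 panels (no hormone given or E2 + ICI, E2, E2 + P4), with a dashed line at 60 Postn UMIs. The first panel includes the Intact library, whose mice were not given VCD. The panels hold 19, 155 and 325 Postn-high cells above the line and 831, 228 and 181 Postn-low cells below it.

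Fibroblasts with at least 60 Postn UMIs but no Tnc UMI numbered 735, and those high in both Fabp4 and Postn numbered 1101. With E2 + P4 they numbered 158 and 242 without PBDE, 167 and 245 with low PBDE and 94 and 126 with high PBDE. With E2 they numbered 36 and 57 without PBDE, 33 and 59 with low PBDE and 153 and 271 with high PBDE. The VCD_Vehicle library held 12 and 10, and the Intact library, with 6 Postn-high Tnc cells, held 44 and 60, above the E2 libraries with no and low PBDE.

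The remaining named markers were checked on cells thinned to 5000 UMIs each, which left 479 of 480 Postn-high and 313 of 409 Postn-low cells of the 6 E2 and E2 + P4 libraries. Mfap4 had a UMI in 66.0% of Postn-high cells, 31.6% of Postn-low cells and 15.2% of the cells high in both Fabp4 and Postn. For Stra6 the shares were 35.7%, 12.1% and 1.60%. For Crabp1 they were 28.8%, 25.6% and 3.40%, so that by this measure Crabp1 was similar in Postn-high and Postn-low cells. Its level in summed UMIs, given below, was higher in Postn-high cells. In immune cells, which should lack these genes, the thinned shares were 1.17%, 0.203% and 0.254% (1969 of 3003 cells, with a median of 7057 UMIs before thinning). The collagen limit on immune cells can leave out barcodes with much free fibroblast RNA. Shares in immune cells, here and below, may therefore understate the background of fibroblast genes.

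The share of Mfap4 and the share of Stra6 each differed little between numbers of Tnc UMIs. Mfap4 was found in 64.4% of thinned cells with 1 Tnc UMI, 67.8% with 2 and 66.2% with 3 or more, and Stra6 in 33.9%, 39.0% and 35.8%. In the Postn-high fibroblasts without a Tnc UMI the shares were lower, 45.4% for Mfap4, 21.3% for Stra6 and 18.9% for Crabp1. Among libraries, Mfap4 was found in 38.2% of thinned Postn-high cells with E2 and no PBDE, 29.8% with E2 and low PBDE, and 66.2% to 77.2% in the other 4. Stra6 varied less, from 28.4% to 45.3% over the 6 libraries. The 19 Postn-high cells of the other 6 libraries gave shares of 63.2% for Mfap4, 42.1% for Stra6 and 52.6% for Crabp1.

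To ask what else distinguished these cells from Postn-low cells, UMIs were summed over each class in each E2 and E2 + P4 library and compared within libraries. Fibroblasts high in Postn without Tnc, or high in both Fabp4 and Postn, were not part of this comparison. It therefore does not show which differences are particular to the Tnc cells. Levels are CPM of the sum, and fold changes are log2 values with the standard error from edgeR. How many of all tested genes had no overlap between the classes was not counted. Statements on overlap therefore describe the named genes only. Of 9970 genes tested, 440 were higher in Postn-high cells (4.41%) and 659 were lower (6.61%), 11% in all, at a Benjamini-Hochberg adjusted p under 0.05 in edgeR's quasi-likelihood test. The median log2 fold change of all tested genes was 0.01. DESeq2 called 759 genes. With only cells of 10000 to 30000 UMIs, 809 genes were called. They included 703, or 64.0%, of the 1099 genes called in the full comparison, all in the same direction. These are part of the same cells, so the direction gives no separate support. When at least 3 Tnc UMIs were asked of each cell, 4 libraries remained and 80 genes were called, whereas the same 4 libraries gave 569 calls with at least 1 Tnc UMI. Of the genes called in the full comparison and tested with 3 Tnc UMIs, 420 of 422 higher and 556 of 571 lower genes kept their direction.

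The genes that defined the split are given as a description only. Over the 6 libraries, Postn ranged from 4745 to 11009 CPM in Postn-high and from 966 to 2293 CPM in Postn-low cells, and Tnc from 269.7 to 547 and from 106 to 502 CPM. Of the markers, Stra6 ranged from 89.6 to 128 CPM (median 108) in Postn-high and from 9.84 to 54.0 CPM (median 26.3) in Postn-low cells, without overlap (log2 fold change 1.63). Mfap4 ranged from 196 to 894 CPM (median 635) against 87.8 to 231 CPM (median 190.3) and overlapped. It was higher in the Postn-high cells of 5 of 6 libraries (log2 fold change 1.49), E2 with low PBDE being the exception with 196 and 197 CPM. Crabp1 was higher in the Postn-high cells of all 6 libraries, with medians of 167 and 57.3 CPM (log2 fold change 1.22).

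The gene with the largest fold among those named was Hs3st6, a heparan sulfate sulfotransferase, with a lowest, median and highest level of 7.49, 42.5 and 54.2 CPM in Postn-high and 0, 3.25 and 19.7 CPM in Postn-low cells (log2 fold change 2.85 ± 0.33, adjusted p = 0.00019). The groups overlapped because Postn-high cells with E2 and low PBDE were low. Lrrc15, a leucine-rich repeat membrane protein known from activated fibroblasts in tumors, had 199, 242 and 420.1 CPM against 39.4, 67.0 and 89.4 CPM (1.89 ± 0.17, adjusted p = 2.1e-05). Its groups did not overlap. Cthrc1, a secreted protein of fibroblasts in remodeling tissue, had 273, 448 and 645 CPM against 78.7, 121 and 222 CPM (1.69 ± 0.18, adjusted p = 0.00013), again without overlap. Angpt2, a ligand of the Tie2 receptor on vessels, had 81.2, 120.2 and 146 CPM against 12.3, 32.8 and 42.5 CPM (1.79 ± 0.15, adjusted p = 1.8e-05). Its lowest Postn-high library was above its highest Postn-low library. After thinning, 62.2% of Postn-high and 21.7% of Postn-low cells had a Lrrc15 UMI, 68.5% and 34.5% a Cthrc1 UMI, and 38.4% and 14.1% an Angpt2 UMI. In immune cells these shares were 0.102%, 1.17% and 0.406%. Lrrc15 was also found in 40.8% of cells high in both Fabp4 and Postn. Tnfrsf18, a TNF receptor family member best known from lymphocytes, was higher as well (1.79 ± 0.20, adjusted p = 0.00016).

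**Figure D3:**
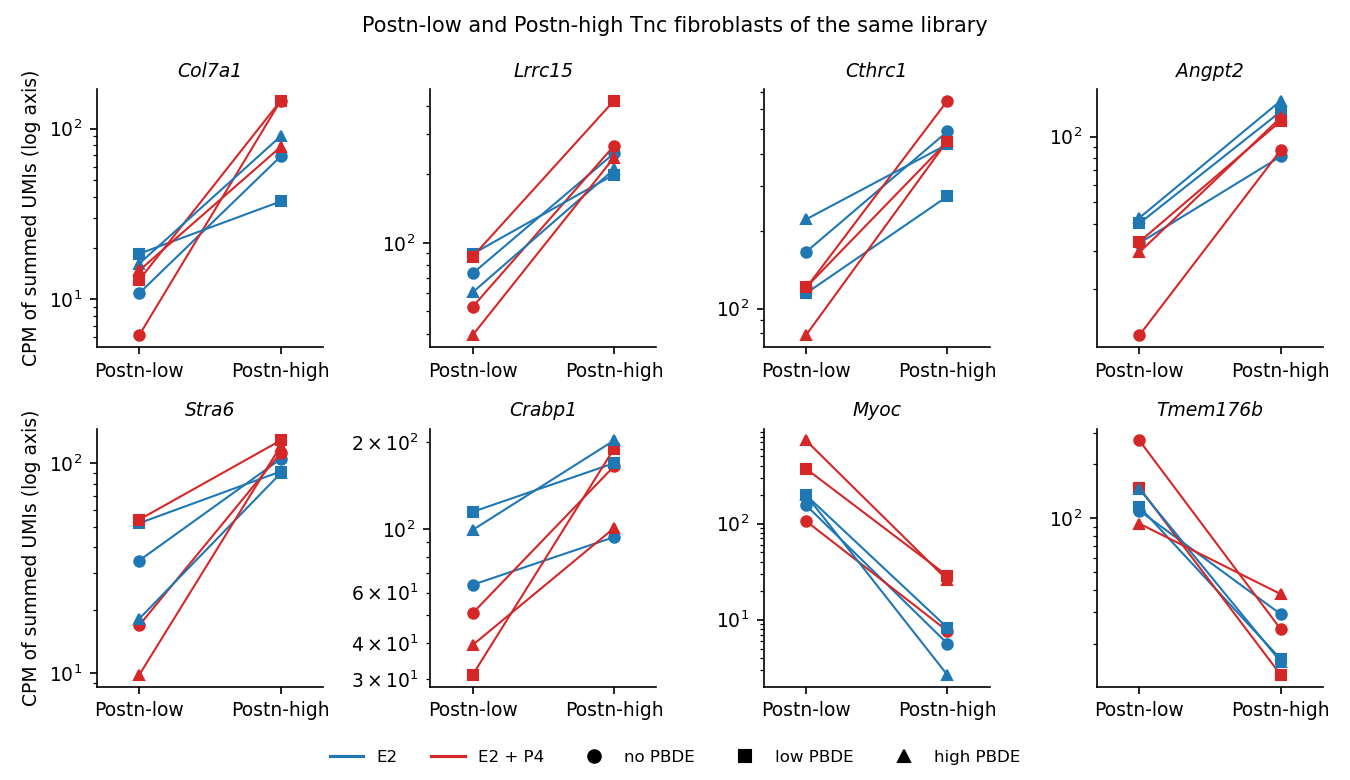
Level (CPM, log axis) of 8 genes in Postn-low and Postn-high cells of each E2 library (blue) and E2 + P4 library (red), joined within a library. Circles, squares and triangles mark no, low and high PBDE. Col7a1, Lrrc15, Cthrc1, Angpt2 and Stra6 lie higher and Myoc and Tmem176b lower in the Postn-high cells of all 6 libraries.

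Of 25 listed collagens other than the 3 of the fibroblast rule, 21 were tested. In Postn-high cells 11 of them were higher, none was lower and 10 were not called, with a median log2 fold change of 0.53. Col7a1, the anchoring fibril collagen, had a lowest, median and highest level of 37.5, 84.2 and 146 CPM in Postn-high cells and 6.16, 13.9 and 18.5 CPM in Postn-low cells (2.61 ± 0.31, adjusted p = 0.00021). These groups did not overlap. Col12a1, a fibril-associated collagen that binds tenascins, had 129.6, 266 and 307 CPM against 38.5, 85.3 and 99.9 CPM (1.58 ± 0.20, adjusted p = 0.00035). Col5a2, which sets the width of collagen fibrils, had 2076, 2673 and 2844 CPM against 1368, 1549 and 1988 CPM (0.69 ± 0.07, adjusted p = 4.3e-05). Both were also separated between the groups. Col15a1, a basement membrane zone collagen, was higher too (0.74 ± 0.08, adjusted p = 0.00019), whereas Col6a3 had a log2 fold change of 0.05 ± 0.07 and was not called. Among the rule's own collagens, Col1a1 had a median of 17741 CPM in Postn-high and 9044 CPM in Postn-low cells.

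Of 17 elastic fiber and microfibril genes tested, 8 were higher, the named marker Mfap4 among them, 3 were lower and 6 were not called, with a median of 0.34. Eln, the elastin precursor, ranged from 324 to 1708 CPM in Postn-high and from 62.7 to 437 CPM in Postn-low cells, with medians of 967 and 304 CPM (1.67 ± 0.28, adjusted p = 0.0022). The groups overlapped because Eln in Postn-high cells was much lower with E2 than with E2 + P4. Fbn2, the fibrillin of developing tissue, had 73.0, 171 and 223 CPM against 24.6, 35.2 and 107 CPM (1.58 ± 0.23, adjusted p = 0.00076) and was higher in all 6 libraries. Fbn1, the fibrillin of adult tissue, differed less (0.34 ± 0.07, adjusted p = 0.0085). Fbln1, a fibulin of elastic fibers and basement membranes, was lower, with medians of 218 and 469 CPM (-1.03 ± 0.12, adjusted p = 0.00017), and so was Ltbp4, which tethers latent TGF-β to elastic fibers (-1.38 ± 0.19, adjusted p = 0.00052).

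Genes of collagen processing and cross-linking went both ways. Plod2, the lysyl hydroxylase of collagen telopeptides, had a lowest, median and highest level of 147, 199 and 268 CPM against 52.6, 97.7 and 118 CPM (1.15 ± 0.16, adjusted p = 0.00051), and Loxl1, a cross-linking lysyl oxidase, was also higher (0.62 ± 0.10, adjusted p = 0.002). Pcolce, an enhancer of procollagen C-proteinase, was lower, with 335, 423 and 519.9 CPM against 716, 784 and 1037 CPM (-0.98 ± 0.12, adjusted p = 0.00024). None of these 3 overlapped between the groups. Over the list, 4 genes were higher and 2 lower of 20 tested, with a median of 0.11. Of 30 endoplasmic reticulum and secretion genes, 8 were higher and 1 lower (median 0.21), among the higher ones Creb3l1, a transcription factor of collagen secretion (0.53 ± 0.11, adjusted p = 0.0057), and Ssr3, a translocon subunit (0.49 ± 0.10, adjusted p = 0.0049).

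Matricellular genes did not move together. Of 17 tested, 5 were higher and 5 lower, with a median of -0.23. Sparc, a collagen-binding glycoprotein, was higher at 8877, 12465 and 15238 CPM against 6265, 7067 and 8922 CPM (0.70 ± 0.07, adjusted p = 5.6e-05). Fn1, fibronectin, was higher with medians of 3407 and 1778 CPM (0.69 ± 0.09, adjusted p = 0.00031). Both were higher in the Postn-high cells of all 6 libraries, although their ranges overlapped. Wisp1, a CCN family Wnt target, was higher (1.77 ± 0.27, adjusted p = 0.00099), and Tgfbi, the closest relative of periostin, was lower, with medians of 42.2 and 101 CPM (-1.46 ± 0.19, adjusted p = 0.00047). Wisp2 was counted as lower. In the Postn-high cells of the E2 library without PBDE, 1 cell held 109 of its 113 UMIs, which raised the Postn-high level there.

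Contractile genes were higher in 5 of 9 tested and lower in none (median 0.50). Tagln, an actin-binding protein of smooth muscle, ranged from 12.4 to 90.9 CPM in Postn-high cells (median 75.4) and had a median of 6.37 CPM in Postn-low cells (2.26 ± 0.39, adjusted p = 0.0024). It lay under 14 CPM in the E2 libraries with no and with low PBDE and above 71 CPM in the other 4. Tpm2, a tropomyosin, was higher in all 6 libraries (0.76 ± 0.17, adjusted p = 0.011). Acta2, smooth muscle actin, was called as higher (1.64 ± 0.36, adjusted p = 0.01), but only 66 of 480 Postn-high cells had a UMI, 1 cell held 23.4% of them, and the difference turned to -2.08 when cells were split at 4000 Postn CPM. Pericyte and smooth muscle markers summed to a median of 20.4 CPM in Postn-high and 34.8 CPM in Postn-low cells, and every Postn-high sum lay under every Postn-low sum.

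Of 17 retinoid genes, 13 were tested. The markers Stra6 and Crabp1 were higher, 3 were lower and 8 were not called, with a median of -0.26. The lower ones were Cyp26b1, which degrades retinoic acid (-2.38 ± 0.58, adjusted p = 0.018), Dhrs3, a retinal reductase (-0.54 ± 0.14, adjusted p = 0.022), and Aldh1a1, a retinal dehydrogenase. The call on Cyp26b1 was lost without either of the E2 + P4 libraries with no or with low PBDE, and its level in Postn-high cells was between 0.657 and 18.0 CPM.

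Growth factor and Wnt genes went both ways, with 6 higher and 7 lower of 27 tested (median -0.14). Dkk2, a secreted Wnt antagonist, was lower, with 8.24, 15.1 and 22.4 CPM in Postn-high and 46.6, 53.0 and 100.1 CPM in Postn-low cells (-2.04 ± 0.19, adjusted p = 4.2e-05). Fgf7, which acts on epithelial FGF receptors, was also lower, with 9.96, 12.3 and 17.8 CPM against 27.4, 34.0 and 49.2 CPM (-1.45 ± 0.18, adjusted p = 0.00025). Neither gene overlapped between the groups. Of the Wnt-binding Sfrp proteins, Sfrp4 was lower (-1.90 ± 0.33, adjusted p = 0.0026) and Sfrp2 was higher (0.92 ± 0.20, adjusted p = 0.0088), and Rspo1, a Wnt agonist, was higher (1.92 ± 0.40, adjusted p = 0.0069). Of 15 TGF-β signaling genes tested, Tgfb2 alone was called (-1.28 ± 0.37, adjusted p = 0.041), and that call was lost without any 1 of 4 libraries.

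Among matrix proteases and inhibitors, 2 were higher and 5 lower of 19 tested (median -0.14). Mmp16, a membrane-bound metalloproteinase, was higher in all 6 libraries (1.16 ± 0.23, adjusted p = 0.005), and Timp2, a metalloproteinase inhibitor, was lower, with 755, 867 and 1227 CPM against 1346, 1522 and 1731 CPM (-0.75 ± 0.11, adjusted p = 0.00092). Adamts1, a proteoglycan-cleaving protease, was lower as well (-0.85 ± 0.16, adjusted p = 0.0035), and none of the 3 overlapped between groups. Of 14 proteoglycan and hyaluronan genes, Vcan, the large proteoglycan versican, was higher (0.75 ± 0.17, adjusted p = 0.012) and 3 were lower. The clearest of these was Prelp, a small proteoglycan that anchors basement membranes, with 56.9, 72.6 and 98.9 CPM against 159, 198 and 275 CPM (-1.42 ± 0.13, adjusted p = 3.2e-05).

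Of 14 steroid receptor and estrogen target genes tested, 1 was higher and 5 were lower, with a median of -0.64. Esr1, which encodes estrogen receptor α, had 8.90, 12.2 and 22.5 CPM in Postn-high and 12.1, 25.5 and 30.8 CPM in Postn-low cells (-0.89 ± 0.26, adjusted p = 0.041). The groups overlapped and Esr1 was lower in 5 of 6 libraries. Pgr, the progesterone receptor, did not pass the filter on low counts. It lay between 0 and 3.38 CPM in Postn-high cells and was found in 0.209% of them after thinning, so any difference in Pgr was not detectable at this depth. Igfbp4, a binding protein of insulin-like growth factors, was the higher one (0.56 ± 0.09, adjusted p = 0.0021).

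Interferon-induced genes were mostly lower, with 13 lower and none higher of 16 tested and a median of -1.10. Rtp4 had 14.4, 21.3 and 35.0 CPM against 29.5, 50.5 and 60.6 CPM (-1.21 ± 0.17, adjusted p = 0.00057). Irf7, the interferon regulatory factor, had medians of 17.3 and 66.3 CPM (-1.69 ± 0.29, adjusted p = 0.0023), and Bst2 was also lower (-1.04 ± 0.18, adjusted p = 0.0025). All 3 were lower in the Postn-high cells of all 6 libraries, although the ranges overlapped.

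Of 18 immediate early and heat shock genes, which enzymatic dissociation of tissue is known to induce, 10 were lower and none higher (median -0.50). Atf3 had 114, 143 and 272 CPM against 246, 555 and 627 CPM (-1.65 ± 0.19, adjusted p = 0.00017), and Dnajb1 had medians of 118 and 189.7 CPM (-0.80 ± 0.10, adjusted p = 0.00041). The part of dissociation in the other differences was not tested. None of 29 respiratory chain genes was called (median 0.03), and of 19 cell cycle genes Pcna and Mcm6 were lower while the median was 0.29.

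All 8 markers of Dpp4 fibroblasts, a major type named by the study, were tested and lower in Postn-high cells, with a median of -1.67, but the difference in Ackr3 was 0.11 when at least 3 Tnc UMIs were asked of each cell. Dpp4 itself had 21.2, 36.4 and 52.4 CPM against 59.6, 99.4 and 133 CPM (-1.51 ± 0.22, adjusted p = 0.00088), without overlap. Their summed level was 187 to 344 CPM in Postn-high and 412 to 1164 CPM in Postn-low cells. After thinning, a Dpp4 UMI was found in 12.7% of Postn-high cells. Immune cells gave 13.9%, but the origin of their Dpp4 UMIs was not tested. The immune share therefore gives no background level for Dpp4. The rule excluded cells with 20 or more Pi16 UMIs, Pi16 being a marker of the same type, from both classes. This limit is a raw count, so relative to depth it was stricter for Postn-high cells (median 25578.5 UMIs) than for Postn-low cells (median 13384 UMIs). Its part in the differences of this type's markers was not tested.

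Of 9 markers of the Gdf10 F3 fibroblasts, 7 were lower and 1 higher, with a median of -0.94. Tmem176b, a membrane protein, had 13.5, 20.3 and 37.9 CPM against 93.5, 131 and 271 CPM (-2.82 ± 0.24, adjusted p = 1.8e-05), and Gas6, a ligand of TAM receptors, had medians of 80.4 and 292 CPM (-1.96 ± 0.28, adjusted p = 0.00071). Gdf10 was lower in all 6 libraries (-1.96 ± 0.42, adjusted p = 0.0088), but its difference was 0.21 when at least 3 Tnc UMIs were asked of each cell. The higher marker was Inmt, a methyltransferase (0.68 ± 0.19, adjusted p = 0.03). Of 8 markers of Fib_2, a fibroblast cluster named by the study, Mfap4, Thbs1 and Mdk were higher and Apoe, a lipid carrier, was lower (-1.29 ± 0.11, adjusted p = 1.8e-05). Of 8 markers of Fabp4 fibroblasts, Col15a1 was higher and Fabp5 and Cd36, both lipid handling genes, were lower, and 5 were not called. The Fabp4 limit of the rule, also a raw count, was likewise stricter for the deeper Postn-high cells. The summed levels of the Fabp4 markers, 3141 to 4349 CPM in Postn-high and 3056 to 4044 CPM in Postn-low cells, overlapped, as did those of the Gdf10 F3 markers, 1082 to 1618 CPM and 1230 to 2353 CPM.

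The largest difference in the other direction was Myoc, myocilin, with 2.66, 7.93 and 28.6 CPM in Postn-high and 106, 198 and 733 CPM in Postn-low cells (-4.38 ± 0.22, adjusted p = 2.5e-07). All 6 Postn-high sums lay under all 6 Postn-low sums. After thinning, 2.71% of Postn-high and 9.90% of Postn-low cells had a Myoc UMI, beside 4.98% of immune cells. The share in Postn-high cells was thus not above that of immune cells, and free RNA was not measured. Most thinned Postn-low cells had no Myoc UMI either. C3, complement component 3, had 106, 169 and 240.1 CPM against 421, 887 and 1137 CPM (-2.35 ± 0.28, adjusted p = 0.00021), also without overlap. Chrdl1, a BMP antagonist, was lower as well (-2.57 ± 0.47, adjusted p = 0.0035).

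Markers of cells other than fibroblasts were not called as higher in Postn-high cells in any list. None of the 7 endothelial and 6 adipocyte markers passed the filter on low counts, so those lists could give no call. Of 9 epithelial markers 1 was tested. The rule itself required Ptprc, Pecam1 and Epcam to be absent. Immune markers summed to 38.1 to 54.1 CPM in Postn-high and 30.3 to 486 CPM in Postn-low cells over 10 genes. Of 5 tested, Cd52 and Lyz2 were lower. Schwann cell markers summed to 7.89 to 15.7 against 7.70 to 178 CPM over 6 genes, and 3 of 4 tested were lower, among them Kcna1 and Mbp. Endothelial markers summed to 4.65 to 15.0 CPM and epithelial markers to 0.575 to 18.0 CPM in Postn-high cells, where Krt14, Krt5 and Emcn were at 0 in all 6 sums, as were the adipocyte markers Adipoq, Cidec and Cfd. Skeletal muscle and tendon markers summed to 0 to 93.3 CPM in Postn-high and 0 to 78.9 CPM in Postn-low cells, and none of the 4 tested was called. The part of these cells in the differences above was not tested.

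**Figure D4:**
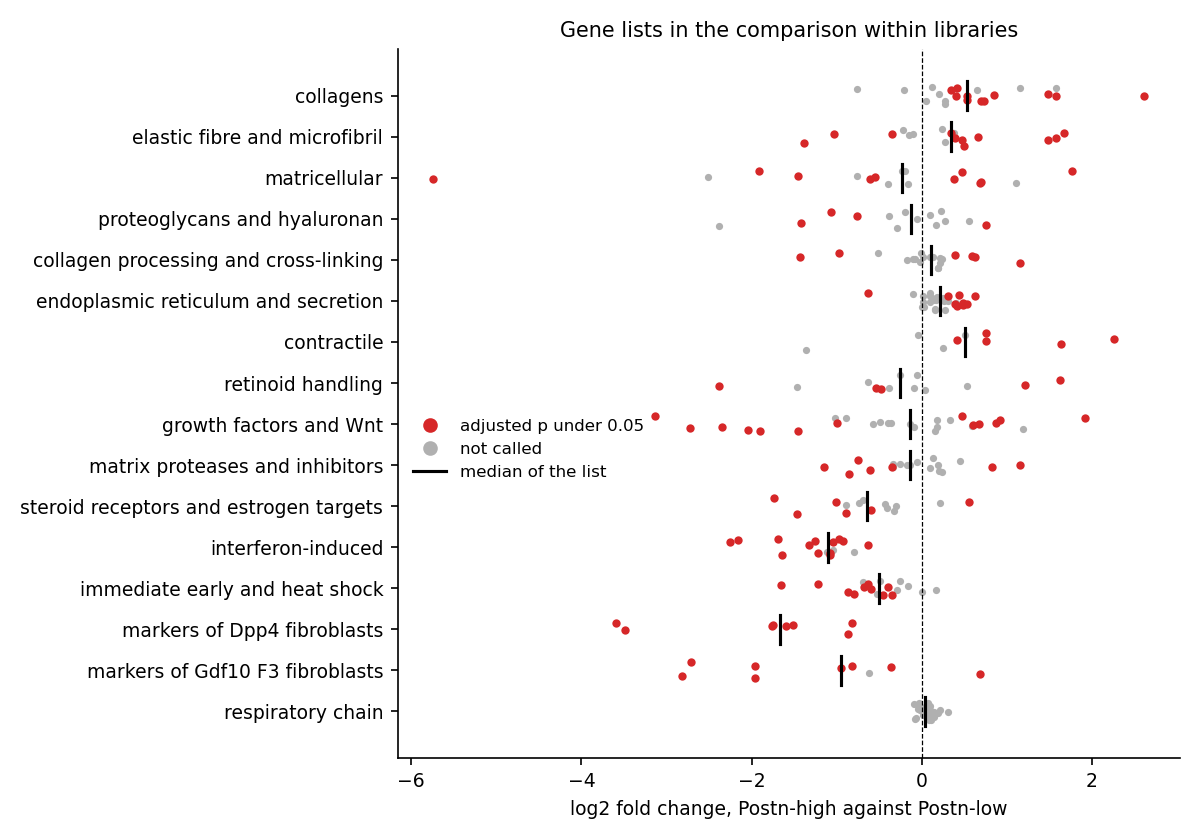
Log2 fold change of Postn-high over Postn-low cells for each tested gene of 16 gene lists, in red where the adjusted p was under 0.05, with a black bar at the list median. Collagens (11 higher, none lower) and Dpp4 fibroblast markers (8 of 8 lower) lie on opposite sides, and interferon-induced genes (13 of 16 lower) sit below 0.

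The next comparison asked whether Postn-high cells differed between E2 + P4 and E2. The 3 E2 and 3 E2 + P4 libraries were compared with PBDE level as a term. The fit rests on 2 residual degrees of freedom and takes the hormone difference as equal at each PBDE level. As given above, Postn-high cells had a higher median number of Postn UMIs in each E2 + P4 library than in each E2 library, before scaling for depth. A shift in how far cells lay above the Postn limit and another change within cells therefore cannot be told apart here. Of 9609 genes tested, 45 were higher with E2 + P4 (0.468%) and 90 were lower (0.937%), 1.4% in all, and the median log2 fold change was -0.01. DESeq2 called 55 genes. The count depended on single libraries. It was 1 without the E2 + P4 and low PBDE library, 19 without E2 and low PBDE, 29 without E2 and no PBDE and 45 without E2 + P4 and no PBDE, and it was 547 and 551 without E2 or E2 + P4 and high PBDE.

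Eln was higher with E2 + P4, at 1708, 1378 and 1521 CPM with no, low and high PBDE against 556, 324 and 416 CPM with E2 (log2 fold change 1.86 ± 0.14, adjusted p = 4.2e-05). Cilp, a matrix protein that binds TGF-β, was at 669, 533 and 493 CPM against 256, 267 and 79.0 CPM (1.64 ± 0.23, adjusted p = 0.0038). Mgp, matrix Gla protein, an inhibitor of calcification, was at 3765, 2395 and 2538 CPM against 691, 805 and 1660.2 CPM (1.54 ± 0.24, adjusted p = 0.0071). In all 3 genes every E2 + P4 library was above every E2 library. The genes were named for their calls, and how many of all tested genes separated in this way was not counted, so this is a description. The call on Mgp was lost in DESeq2, with at least 3 Tnc UMIs and without any 1 of 3 libraries. Mfap4, given as a description since it was a marker named for these cells, was at 695, 894 and 829 CPM against 209.7, 196 and 574 CPM. Kcnk2, a potassium channel, was also higher (1.93, adjusted p = 0.0036), as was Ctla2a, a cathepsin inhibitor (2.56, adjusted p = 0.0036), of which 1 cell held 54.6% of the UMIs over the 6 libraries. Both calls were lost with at least 3 Tnc UMIs and without the E2 + P4 and low PBDE library. That on Kcnk2 was also lost without E2 and low PBDE, and that on Ctla2a in DESeq2 and without either library with no PBDE.

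Among the genes lower with E2 + P4, Wisp2 and the hemoglobin genes Hba-a2 and Hbb-bt had the largest fold changes of those named. Single cells held most UMIs of Wisp2 and of a hemoglobin gene in some libraries, as given for the other comparisons. Hsd11b1, which regenerates active glucocorticoid, was lower, at 80.1, 89.7 and 111 CPM with E2 + P4 and no, low and high PBDE against 239, 330.4 and 356 CPM with E2 (-1.71 ± 0.14, adjusted p = 4.2e-05). Penk, proenkephalin, was at 38.6, 53.5 and 75.8 CPM against 172, 269.7 and 187 CPM (-1.93 ± 0.18, adjusted p = 0.00018). Neither overlapped between the hormone groups. Apoe was at 126, 87.0 and 153 CPM against 259, 359 and 459 CPM (-1.55 ± 0.17, adjusted p = 0.00054), also without overlap. Eln, Cilp, Hsd11b1, Penk, Apoe and Sfrp4 lost their calls without the E2 + P4 and low PBDE library and in no other alternative run.

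By list, no collagen was called of 21 tested, beside 1.4% of all genes. Of these 21, 18 had a positive log2 fold change (median 0.30), so the lack of calls does not show them unchanged. Of 17 elastic fiber genes, Eln and the named marker Mfap4 were higher and Fbln1 lower (median 0.32). Of 23 growth factor and Wnt genes, 5 were lower and none higher. They included the Wnt-binding proteins Sfrp4 (-1.76 ± 0.21, adjusted p = 0.001), Sfrp1 (-1.09 ± 0.16, adjusted p = 0.0044) and Sfrp2 (-0.80 ± 0.14, adjusted p = 0.014), and Kitl, the ligand of the receptor Kit, at 87.5, 83.8 and 85.6 CPM against 151, 148 and 146 CPM (-0.79 ± 0.13, adjusted p = 0.0094). Of 8 Fib_2 markers, Penk, Apoe, Enpp2 and Scg3 were lower and Mfap4 higher. Mmp3, the metalloproteinase stromelysin, was lower at 1382, 1319 and 1051 CPM against 2282, 2186 and 2077 CPM (-0.81 ± 0.13, adjusted p = 0.0071). The groups did not overlap. The calls on Kitl, Sfrp2 and Mmp3 were each lost without any 1 of 4 libraries. None of 14 interferon-induced genes was called, but none had a positive log2 fold change either (median -0.65).

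**Figure D5:**
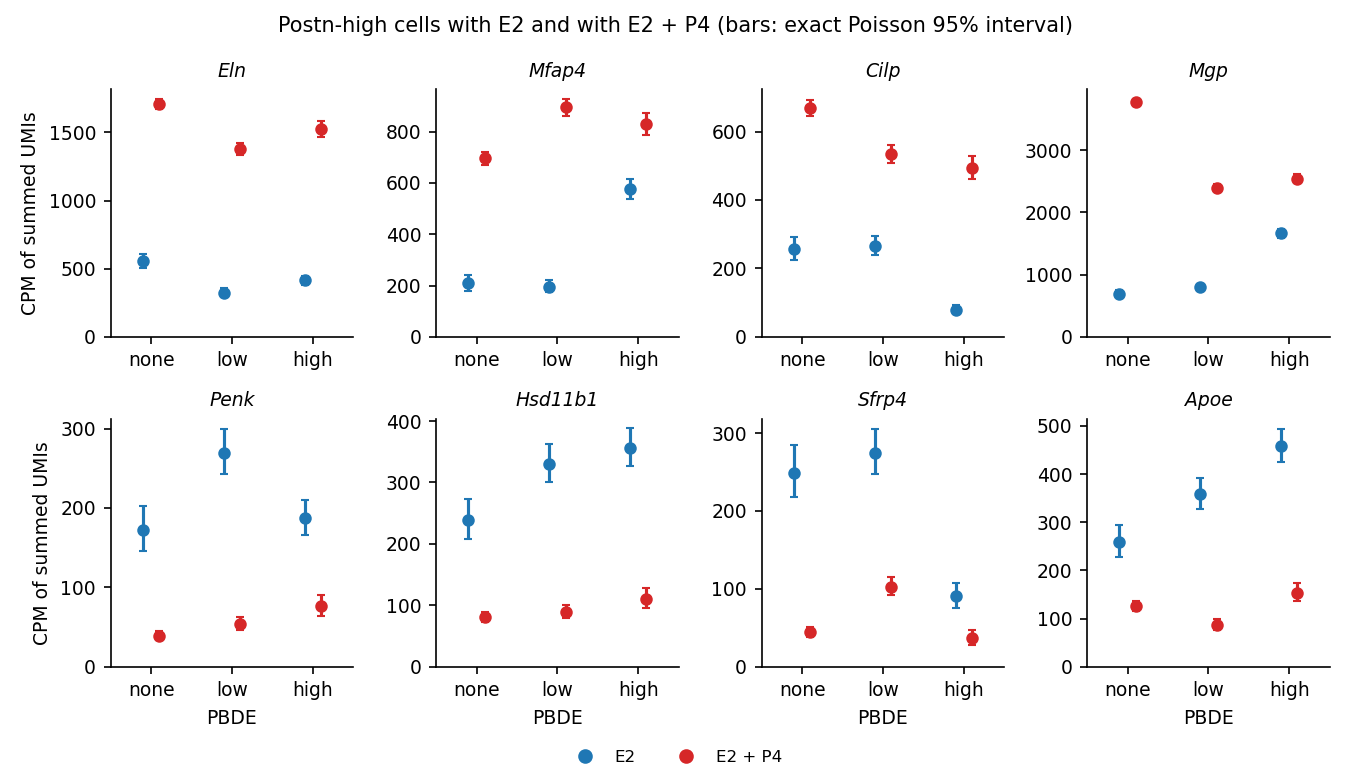
Level (CPM) of 8 genes in Postn-high cells of the E2 (blue) and E2 + P4 (red) libraries at no, low and high PBDE, with exact 95% Poisson intervals that cover counting error only. Eln, Cilp and Mgp lie higher and Penk, Hsd11b1, Sfrp4 and Apoe lower with E2 + P4 at each PBDE level.

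Low and high PBDE were each compared with no PBDE in Postn-high cells. Both PBDE comparisons used the same 2 libraries without PBDE as controls. With low PBDE, 10 of 9609 genes were called (0.104%), 3 higher (0.0312%) and 7 lower (0.0728%), whereas 375 had an unadjusted p under 0.05. No gene was called among cells of 10000 to 30000 UMIs or without the top 5% of cells by UMIs. The higher genes were Ackr3, a chemokine scavenger, at 78.7 CPM with E2 against 38.3 CPM without PBDE and likewise higher with E2 + P4 (1.52 ± 0.23, adjusted p = 0.021), Ptx3, a pentraxin (1.44 ± 0.24, adjusted p = 0.04), and Tnmd, a tendon marker at 0 and 0.848 CPM without PBDE. Ccl8, a chemokine, was lower, at 75.7 and 54.2 CPM against 138 and 148 CPM (-1.20 ± 0.19, adjusted p = 0.021). The calls on Ackr3, Ptx3, Tnmd and Ccl8 were each lost in DESeq2, with at least 3 Tnc UMIs and without either E2 + P4 library with no or low PBDE. The other lower genes were Wisp2, Ctla2a and 4 hemoglobin genes, whose near-identical copies leave the split of reads between them uncertain. The hemoglobin signal sat in single cells. Of 2218 Hbb-bs UMIs in the Postn-high cells of the E2 library without PBDE, 2194 came from 1 cell, and of 2894 with E2 + P4 and no PBDE, 2857 came from 1 cell.

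With high PBDE, 24 genes were called (0.25%), 8 higher (0.0833%) and 16 lower (0.167%), and 1001 had an unadjusted p under 0.05. Creb5, a transcription factor, was at 194 and 87.9 CPM (E2, E2 + P4) against 66.5 and 38.6 CPM without PBDE (1.36 ± 0.23, adjusted p = 0.026). Gadd45a, a growth arrest gene, was at 92.9 and 61.5 CPM against 31.6 and 28.8 CPM (1.23 ± 0.20, adjusted p = 0.015). Notch2, a Notch receptor, was at 166 and 117 CPM against 81.2 and 44.7 CPM (1.20 ± 0.22, adjusted p = 0.035). In Gadd45a and Notch2 both high PBDE libraries lay above both libraries without PBDE, as they did in Creb5. These genes were named for a call and the same sign at both hormone levels, so this order gives no separate support. All 3 calls were lost without the E2 + P4 and low PBDE library, without which no gene was called higher, and with at least 3 Tnc UMIs, and each was lost without 2 other libraries in turn. Cxcl1, a neutrophil chemokine, was lower, at 38.5 and 39.1 CPM against 142 and 120 CPM (-1.81 ± 0.25, adjusted p = 0.0055). The lower genes again included Wisp2, Ctla2a and the hemoglobin genes. The count ranged from 7 to 468 when 1 library was left out.

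Postn-high cells could not be compared between hormone and no hormone, since the VCD_Vehicle library had 7 of them and the libraries with low or high PBDE alone had none. All Tnc fibroblasts, Postn-high and Postn-low together, were therefore compared in the 9 libraries that combine hormone and PBDE. In that comparison the share of Postn-high cells moves with the hormone, so a shift in the mix of cells and a change within cells cannot be told apart, nor can fewer cells of a type and less RNA per cell. Of 10821 genes, 1516 were higher with E2 or E2 + P4 (14%) and 1502 lower (13.9%), 27.9% in all. Without composition factors the split was 1979 higher and 1199 lower. Leaving out the VCD_Vehicle library left 1604 calls.

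Several genes that were higher in Postn-high cells were also higher with hormone over all Tnc fibroblasts. Cthrc1 was at 34.9, 23.9 and 14.6 CPM without hormone (no, low and high PBDE), 283, 179 and 383 CPM with E2 and 581, 366 and 411 CPM with E2 + P4 (log2 fold change 3.63 ± 0.25, adjusted p = 2.7e-06). Stra6, given as a description, was at 1.62 to 11.9 CPM without hormone and 59.9 to 110.0 CPM in the 6 hormone libraries. With ICI beside E2 it was at 26.3 CPM and in the Intact library at 39.7 CPM. Col5a2 (2.06 ± 0.13, adjusted p = 1.9e-06) and Fn1 (2.89 ± 0.34, adjusted p = 0.00011) were higher with hormone. Over the collagen list 18 were higher and 1 lower of 22 tested, with a median above 1. Of the 18 immediate early and heat shock genes, 17 were lower with hormone and none higher, with a median of -1.10, and of 9 markers of Gdf10 F3 fibroblasts 7 were lower and none higher. Their part in the differences with hormone was not tested.

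Mfap4 and Crabp1 overlapped between hormone and no hormone. Mfap4 was at 190 to 304 CPM without hormone and 159 to 765 CPM with hormone (log2 fold change 0.69), and Crabp1 at 62.3 to 128 CPM and 74.6 to 177 CPM (0.43), both given as a description. Of the genes lower with hormone, Igfbp3, a binding protein of insulin-like growth factors, was at 324, 573 and 589 CPM without hormone and at most 54.4 CPM in 5 of the 6 hormone libraries, E2 with high PBDE being the highest (-3.67 ± 0.26, adjusted p = 3.3e-06). Tgfbi was at 416 to 684 CPM against 38.0 to 172 CPM (-3.01 ± 0.13, adjusted p = 1.8e-07), and Apoe at 2578 to 3349 CPM against 115 to 680.2 CPM (-3.39 ± 0.13, adjusted p = 8.6e-08). None of the 3 overlapped between hormone and no hormone, and all 3 stayed called in every alternative run. With E2 and ICI, Tgfbi was at 322 CPM and Apoe at 1679 CPM, nearer to the libraries without hormone than to those with it.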

How the data were processed

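The authors deposited UMI count matrices (27998 genes, mm10) made with Cell Ranger 3.1.0 from 10x Chromium v3 libraries, 1 per group. Counts per gene were summed over the cells of a class in each library. Sums of at least 10 cells were tested with edgeR 4.0.16 (TMM, filterByExpr, quasi-likelihood F-test, two-sided) in R 4.3.3. The design held library and class, or hormone and PBDE level, and p-values were adjusted by Benjamini-Hochberg over all genes tested. With 1 library per group, the PBDE levels served as the replication of the hormone term and the hormones as that of the PBDE terms, so that p-values measure the spread between these libraries. UMIs remove PCR copies, and intervals cover counting error only. Genes were named by size of fold change, 10 per direction past adjusted p 0.05 at 20 CPM or more on average. They had the same sign in every library, PBDE level or hormone level of the main comparison, but not always in the alternatives. Up to 4 from each of 27 gene lists and list members whose role is described were added. The members, lists and tests were chosen with earlier results of these data known. Positions are from GENCODE M21. Alternatives were DESeq2 1.42.0, other filters, thresholds and cell sets, and leaving out each library. The steps were tested on simulated data. Some genes are not reported here.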

Additional observations from a re-analysis of the deposited data

How the results depend on the processing

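The comparison of Postn-high with E2 or E2 + P4 and no hormone was not run, since too few such cells came from the libraries without hormone. For Postn-high against Postn-low cells, the 1099 calls became 2065 without limits on Fabp4 and Pi16, 80 with at least 3 Tnc UMIs and 569 in the same 4 libraries with at least 1 (the last 2 chosen after seeing the data, as was leaving out shared barcodes). Leaving out a library gave 646 (without E2 + P4 and low PBDE) to 979, and 685 without E2 + P4 and no PBDE. For E2 + P4 against E2, the 135 calls became 51 among cells of 10000 to 30000 UMIs, 55 in DESeq2, 407 with no filter, 69 without limits on Fabp4 and Pi16, 89 at 4000 Postn CPM, 37 at 90 Postn UMIs, 54 with 3 Tnc UMIs and 63 without the top 5% of cells, and 1 to 551 when a library was left out. For low PBDE, the 10 calls became 0, 4, 59, 4, 2, 1, 4 and 0 under those settings in the same order and 6 without shared barcodes, and 3 (without E2 + P4 and low PBDE) to 87 (without E2 + P4 and high PBDE) when a library was left out, with 81 without E2 and high PBDE and 21 without E2 + P4 and no PBDE. For high PBDE, the 24 calls became 12 among cells of 10000 to 30000 UMIs, 14 in DESeq2, 236 with no filter, 12 at 90 Postn UMIs, 6 with 3 Tnc UMIs and 6 without the top 5% of cells. They became 7 (without E2 + P4 and low PBDE) to 468 (without E2 + P4 and high PBDE) when a library was left out, with 49 without E2 + P4 and no PBDE and 93 without E2 and high PBDE. For hormone over all Tnc fibroblasts, the 3018 calls became 1711 among cells of 10000 to 30000 UMIs and 1913 in DESeq2, and 1604 (without VCD_Vehicle) to 3276 (without E2 and high PBDE) when a library was left out, with 1835 without low PBDE alone. The median share of Postn-high cells moved from 57.0% to between 46.2% and 67.9% when a hormone library was left out. It moved to 73.7% among cells of 10000 to 30000 UMIs, 64.9% at 40 Postn UMIs, 50.1% at 90 and 71.5% with 3 Tnc UMIs. In the other 6 libraries it moved from 2.66% to between 2.46% and 2.86% when a library was left out. There it moved to 3.97% among cells of 10000 to 30000 UMIs, 4.44% at 40 Postn UMIs, 0.564% at 90 and 1.49% with 3 Tnc UMIs. Reversed log2 fold changes were Acta2 (-2.08 at 4000 Postn CPM, -0.30 at 90 UMIs), Ackr3 (0.11) and Gdf10 (0.21) with 3 Tnc UMIs, Hba-a2 for E2 + P4 (2.93 at 4000 Postn CPM), Hbb-bs for low PBDE (0.38 at 10000 to 30000 UMIs, 0.011 without the top 5%) and for high PBDE (0.43 at 10000 to 30000 UMIs), and Cxcl9 for hormone (-0.42 without limits on Fabp4 and Pi16). The cause of these changes was not tested. Depth limits Pgr and other genes near 0.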
